A study of Rattus norvegicus with 16 samples.

Results

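The transcripts described here are those of 10 genes that mark Kupffer cells, the resident macrophages of the liver, and macrophages in general: Cd68, Cd163, Vsig4, Clec4f, Marco, C1qa, C1qb, C1qc, Csf1r and Adgre1. Their probes were matched in the scan files by RefSeq transcript number, which gave 11 of the 30367 probes on the array. All 10 genes were measured, among 13146 transcripts tested, and each was represented by its brightest probe in the liver channel. Liver RNA came from male Sprague-Dawley pups at postnatal day 21 and was hybridised on 16 Agilent rat arrays in 4 groups of 4. Every array held RNA of 2 pups of a group (8 pups per group), labelled with Cy5, against a universal reference RNA of 14 rat cell lines labelled with Cy3. The values are log2 ratios of liver to this reference.

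The groups differ in what the dams were given from the first day of gestation until shortly before the pups were sampled, and all pups stayed with their birth mothers. C dams received corn oil. In 0.5M and M the oil carried a mixture of organochlorine pesticides, polychlorinated biphenyls (PCBs) and methyl mercury, at a daily dose of 0.5 mg per kg in the former and 1 mg per kg in the latter. AhR dams received agonists of the aryl hydrocarbon receptor, namely non-ortho PCBs, dioxins and furans, at 1.8 ng/kg/day in TCDD equivalents. The pups were exposed through the dam, and each array averages a pair of pups. The labels do not say which pups were littermates, so the p-values measure the spread between arrays.

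Kupffer cells line the sinusoids of the liver, where they take up bacteria, immune complexes and worn-out red cells from portal blood. They make the C1q subunits of complement, carry receptors for complement-coated and oxidised particles, and depend on signals through the receptor of colony stimulating factor 1. The transcription factor PU.1 controls many macrophage genes, and the aryl hydrocarbon receptor is a ligand-activated transcription factor that binds a short core motif in DNA. In bulk liver, fewer cells of a type and less RNA per cell cannot be told apart.

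The 250 bases before the transcription start are shown for 4 of the genes, taken from RefSeq in the build GRCr8. C1qa and C1qb are shown because they encode partner subunits of 1 protein, Clec4f because it had the smallest p among the 10 genes in the comparisons with 0.5M, and Adgre1 because its pair with C1qc had the highest correlation. The regions are chr5:154419934-154420183 (minus strand) for C1qa, chr5:154407828-154408077 (minus strand) for C1qb, chr4:117696408-117696657 (minus strand) for Clec4f and chr9:2329190-2329439 (plus strand) for Adgre1. Each runs 5′ to 3′ towards the start, and capitals mark GAGGAA, the core letters of a PU.1 site, or its reverse complement TTCCTC.
C1qa: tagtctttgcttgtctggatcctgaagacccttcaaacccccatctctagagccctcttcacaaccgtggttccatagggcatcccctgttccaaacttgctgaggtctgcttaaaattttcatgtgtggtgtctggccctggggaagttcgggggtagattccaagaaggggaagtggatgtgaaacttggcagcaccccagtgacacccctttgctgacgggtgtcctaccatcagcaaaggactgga
C1qb: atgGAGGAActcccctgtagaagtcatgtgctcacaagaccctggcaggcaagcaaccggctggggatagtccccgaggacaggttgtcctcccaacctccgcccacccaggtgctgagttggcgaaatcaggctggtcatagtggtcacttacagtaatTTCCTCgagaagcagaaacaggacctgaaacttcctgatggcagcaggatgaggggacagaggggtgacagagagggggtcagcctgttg
Clec4f: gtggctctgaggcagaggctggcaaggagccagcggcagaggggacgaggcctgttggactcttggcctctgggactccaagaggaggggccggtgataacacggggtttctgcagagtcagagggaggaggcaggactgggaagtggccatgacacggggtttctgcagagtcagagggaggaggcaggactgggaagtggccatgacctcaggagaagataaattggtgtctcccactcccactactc
Adgre1: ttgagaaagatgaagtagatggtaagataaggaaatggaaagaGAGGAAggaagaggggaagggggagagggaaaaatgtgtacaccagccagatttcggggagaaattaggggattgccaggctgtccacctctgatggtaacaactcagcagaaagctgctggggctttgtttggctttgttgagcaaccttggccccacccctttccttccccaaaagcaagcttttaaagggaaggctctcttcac

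Sequences were found for 9 of the 10 genes, with C1qc unmatched. GAGGAA was present on either strand in 5 of these 9 (Cd68, Marco, C1qb, Csf1r and Adgre1), against 23.3% of 33469 promoters of the same length. In C1qb it lay 247 bases before the start on the plus strand of the gene and 90 bases before it on the minus strand. In Adgre1 it lay 207 bases before the start. GCGTG, the core that the aryl hydrocarbon receptor binds, or its reverse complement CACGC, was present in 1 of the 9, Csf1r, 20 bases before the start, against 25.9% of all promoters. These are matches of letters within the window and not measured binding sites.

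On all 16 arrays the scanner software marked the liver signal of 8 of the 10 genes as well above background. Vsig4 did so on 15, the exception being M 1, and Csf1r on 14, the exceptions being M 1 and AhR 1. No marker probe was saturated. The reference RNA also gave signals well above background at the probes of all 10 genes on every array, so the ratios compare liver with a reference that has signal there too. Whether that signal came from the same transcripts was not tested. Per array, 7082 to 13824 probes stood well above background on slide 1 and 13006 to 15686 on slide 2. Slide 1 carried replicates 1 and 2 of each group and slide 2 replicates 3 and 4, from different pups, so slide and pups cannot be told apart. All 7 hepatocyte markers looked for were measured. Of 9 skeletal muscle markers on the array 4 were measured, and their summed liver signal, on the scanner's intensity scale after normalization, reached 51240 in 0.5M 4 and 44654 in M 2 against at most 875 in C and AhR. Exocrine pancreas transcripts were highest in M 1 and AhR 2, and fat transcripts in C 2.

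None of the 10 transcripts passed the threshold of 0.05 in any of the 6 comparisons between groups or in the test across all groups (limma, Benjamini-Hochberg adjustment over all 13146 transcripts). Of all transcripts, 0.319% passed in M against C, 0.0152% in 0.5M against C and 0.00761% in AhR against C. Between exposed groups 0.0152% passed in M against 0.5M, 0.266% in M against AhR and 0.0228% in 0.5M against AhR, and the moderated F-test over the 4 groups called 0.175%. With so few calls in all, a count of 0 among 10 genes lies near the background in every comparison. At an unadjusted p under 0.05 there were 0 markers in M against C, 1 in 0.5M against C and 0 in AhR against C, where 10.1%, 6.53% and 3.79% of all transcripts lay below that p. The corresponding counts were 2 in M against 0.5M (6.75% of all transcripts), 0 in M against AhR (9.89%), 2 in 0.5M against AhR (9.05%) and 1 by the F-test (9.37%).

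**Figure D1:**
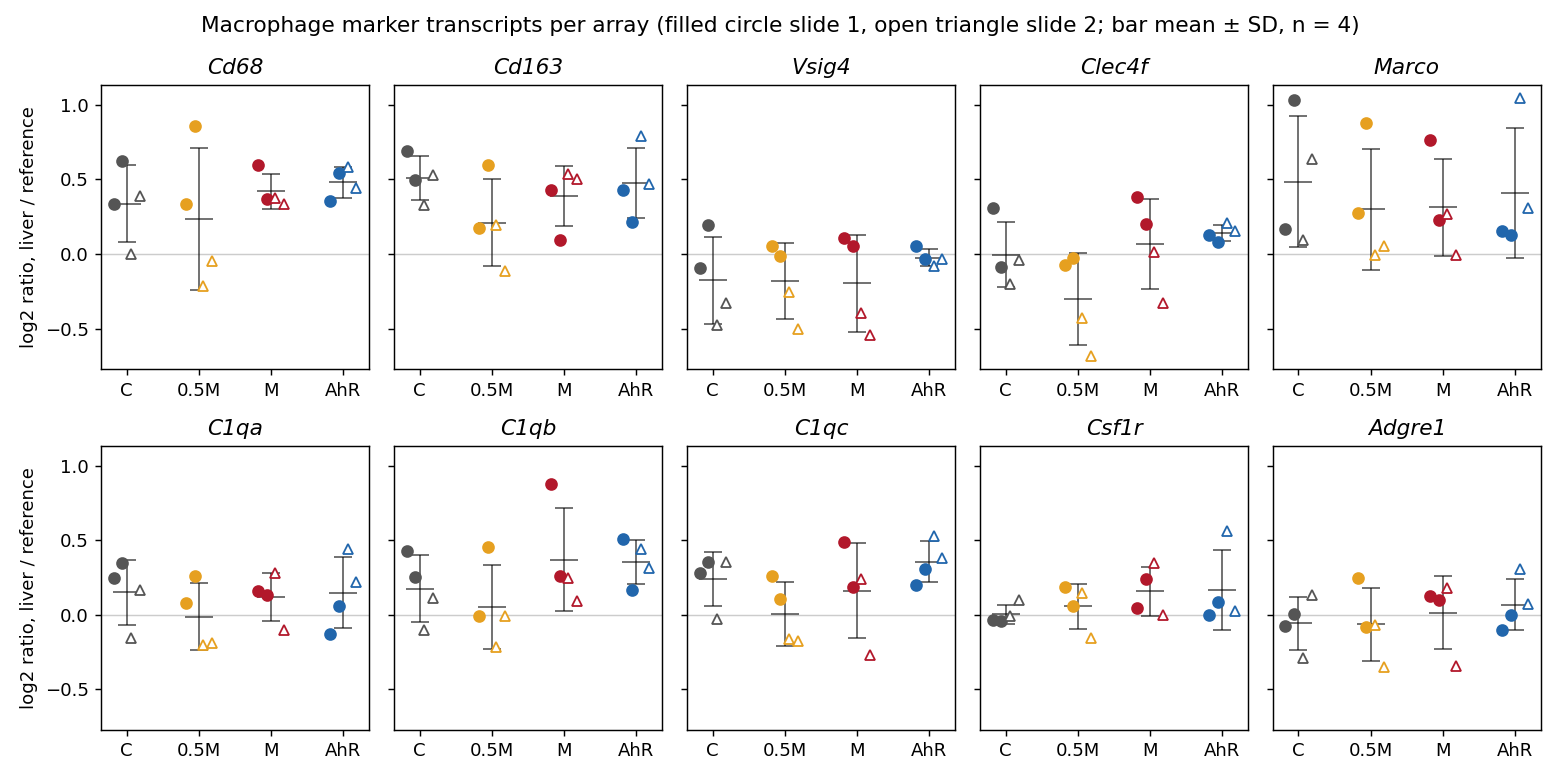
Log2 ratio of liver to reference for each of the 10 marker transcripts on each array, by group, with filled circles for slide 1, open triangles for slide 2 and bars for the mean ± SD of 4 arrays. Values within a group overlap those of the other groups for all markers except Clec4f, where the 4 0.5M arrays lie below the 4 AhR arrays.

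The 3 C1q chains, C1qa (NM_001008515), C1qb (NM_019262) and C1qc (NM_001008524), assemble into the recognition molecule of the classical complement pathway, and macrophages are its main source. C1qa stood at 0.25, 0.35, -0.16 and 0.17 on C arrays 1 to 4, at 0.080, 0.26, -0.20 and -0.19 in 0.5M, at 0.16, 0.13, 0.28 and -0.10 in M and at -0.13, 0.062, 0.44 and 0.22 in AhR. The groups overlapped. On slide 2 the AhR arrays were both above the 0.5M arrays, and on slide 1 they were both below them. The C1qa difference of 0.5M from AhR was 0.20 within slide 1 and -0.53 within slide 2. The group means were 0.15 ± 0.22 in C, -0.013 ± 0.22 in 0.5M, 0.12 ± 0.16 in M and 0.15 ± 0.24 in AhR (SD, n = 4). C1qc stood at 0.28, 0.35, -0.029 and 0.35 in C, at 0.26, 0.11, -0.16 and -0.18 in 0.5M, at 0.49, 0.18, 0.24 and -0.27 in M and at 0.20, 0.31, 0.53 and 0.38 in AhR. Replicates 3 and 4 of 0.5M and M 4 were the lowest arrays. The C1qc difference of 0.5M from AhR was -0.35 ± 0.14 (SE, limma, unadjusted p = 0.0221, adjusted p = 0.493), with 3 of 4 0.5M arrays below all AhR arrays. It was -0.071 within slide 1 and -0.62 within slide 2. C1qb ranged from -0.22 in 0.5M 3 to 0.88 in M 1, and its largest difference was M against 0.5M (0.32 ± 0.14, limma, unadjusted p = 0.0438, adjusted p = 0.729). M 1 was also the array with the highest pancreas transcripts of its group, and their part in the value was not tested.

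Clec4f (NM_053753), a C-type lectin receptor that in rodents is made by Kupffer cells, had the smallest p of the 10 in the 3 comparisons with 0.5M and in the F-test. It stood at 0.31, -0.088, -0.20 and -0.038 in C, at -0.076, -0.027, -0.43 and -0.68 in 0.5M, at 0.38, 0.20, 0.014 and -0.33 in M and at 0.13, 0.081, 0.21 and 0.15 in AhR. All 4 0.5M arrays lay below all 4 AhR arrays, and the AhR arrays lay closest together (SD 0.053, against 0.22 in C, 0.31 in 0.5M and 0.30 in M). The difference of 0.5M from AhR was -0.45 ± 0.13 (SE, limma, unadjusted p = 0.00309, adjusted p = 0.339), a level in 0.5M of 0.734 times that in AhR with a 95% interval of 0.608 to 0.886. No other marker had groups that did not overlap in any of the 6 comparisons. Of all transcripts, 5.01% had such groups in 0.5M against AhR, 4.19% in M against C, 3.04% in 0.5M against C, 2% in AhR against C, 2.8% in M against 0.5M and 4% in M against AhR, so these counts lie near the background. The difference was -0.16 within slide 1 and -0.74 within slide 2. Against C, Clec4f differed by -0.30 ± 0.13 in 0.5M (limma, unadjusted p = 0.0325, adjusted p = 0.748), and M lay above 0.5M by 0.37 ± 0.13 (unadjusted p = 0.0105, adjusted p = 0.573). The F-test across groups gave an adjusted p of 0.417. These differences share the same 0.5M arrays and are not separate evidence. The lowest array, 0.5M 4, was also the one with the highest skeletal muscle signal, and the part of muscle RNA in its level was not tested.

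Vsig4 (NM_001025004), the complement receptor of the immunoglobulin family that binds C3b fragments, separated more by slide than by group. It stood at -0.094, 0.19, -0.48 and -0.33 in C, at 0.055, -0.013, -0.26 and -0.50 in 0.5M, at 0.11, 0.054, -0.40 and -0.55 in M and at 0.051, -0.036, -0.081 and -0.030 in AhR. In C, 0.5M and M both arrays of slide 2 lay below both arrays of slide 1. Over all groups the level was lower by 0.37 ± 0.07 on slide 2 (limma, adjusted p = 0.0111), and Vsig4 was the only marker past the threshold for the slide term, which 8.01% of all transcripts passed. In AhR the 4 arrays ranged only from -0.081 to 0.051, and the difference of AhR from C was -0.042 within slide 1 and 0.35 within slide 2. The pooled value was 0.15 ± 0.10 (limma, adjusted p = 1). M and 0.5M differed from C by -0.018 and -0.0021.

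Of the scavenger receptors, Cd163 (NM_001107887) takes up complexes of haemoglobin and haptoglobin and Marco (NM_001109011) binds bacteria and particles. Cd163 stood at 0.69, 0.50, 0.33 and 0.53 in C, at 0.17, 0.59, 0.19 and -0.11 in 0.5M, at 0.43, 0.10, 0.54 and 0.50 in M and at 0.43, 0.21, 0.79 and 0.47 in AhR. Of the 0.5M arrays 3 of 4 lay below all C arrays, and the group difference was -0.30 ± 0.15 (SE, limma, unadjusted p = 0.0631, adjusted p = 0.748), with -0.21 within slide 1 and -0.39 within slide 2. Marco varied most between arrays of the same group. Its values were 0.17, 1.03, 0.093 and 0.64 in C, 0.27, 0.88, -0.0079 and 0.056 in 0.5M, 0.76, 0.23, 0.27 and -0.0096 in M and 0.15, 0.13, 1.05 and 0.31 in AhR. The highest array of each group was C 2, 0.5M 2, M 1 and AhR 3, and the lowest values of the 4 groups lay between -0.0096 and 0.13. The residual SD of Marco was 0.411, above that of 97.5% of all transcripts, so its intervals are the widest, from 0.610 to 1.27 times the C ratio for 0.5M. Cd68 (NM_001031638), a glycoprotein of the lysosome and endosome used to stain macrophages, ranged from -0.21 in 0.5M 3 to 0.86 in 0.5M 2, so that both extremes fell in 1 group. Its group means were 0.34 ± 0.26 in C, 0.23 ± 0.47 in 0.5M, 0.42 ± 0.12 in M and 0.48 ± 0.10 in AhR (SD, n = 4).

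Csf1r (NM_001029901), the receptor for the growth factors that macrophages need to survive, stood at -0.037, -0.043, -0.0071 and 0.098 in C, at 0.19, 0.056, 0.14 and -0.16 in 0.5M, at 0.043, 0.24, 0.35 and 0.0016 in M and at -0.0023, 0.083, 0.56 and 0.024 in AhR. The C arrays were close together (SD 0.066), and AhR 3 stood apart from the other AhR arrays. The differences from C were 0.16 ± 0.12 in M, 0.055 ± 0.12 in 0.5M and 0.16 ± 0.12 in AhR (SE, limma, adjusted p = 0.724, 0.949 and 1). A second Csf1r probe was well above background on 8 arrays. Its differences from C were -0.075 in M, -0.18 in 0.5M and 0.0060 in AhR, and it followed the main probe weakly across arrays (r = 0.188), so the 2 probes gave M and 0.5M differences of opposite sign. Adgre1 (NM_001007557), the adhesion receptor known as F4/80, ranged from -0.35 in 0.5M 4 and M 4 to 0.30 in AhR 3. Its group means were -0.058 ± 0.18 in C, -0.065 ± 0.24 in 0.5M, 0.015 ± 0.24 in M and 0.068 ± 0.17 in AhR (SD). The largest difference, 0.5M from AhR, was -0.13 ± 0.14 (SE, limma, adjusted p = 0.8).

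Set side by side, 0.5M had the lowest group mean for 8 of the 10 transcripts and AhR the highest for 6, while C and M held most middle places. For no neighbouring pair of groups in these orders was the difference past the adjusted threshold. In M against C, 5 markers were higher and 5 lower, with a median log2 difference of 0.027 (-0.0019 over all transcripts). With median centring in place of loess 9 were lower and the median was -0.17, where that over all transcripts also moved, to -0.088. In 0.5M against C, 9 were lower, with a median of -0.14 (-0.0035 over all transcripts), and 8 or 9 were lower under each other scaling tried. In AhR against C, 7 were higher, with a median of 0.14 (0.00021 over all transcripts), and 7 or 8 were higher under each other scaling; without AhR 3 the median was 0.029. As the markers varied together from array to array, the 10 differences of a comparison are not independent of each other. The 3 comparisons also share the C arrays.

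Within the slides the medians were less alike. M against C gave 0.027 on slide 1 and 0.041 on slide 2, and 4 of 10 markers had the same sign on both. For 0.5M against C the medians were -0.075 and -0.26, with 6 of 10 of the same sign. The AhR difference was -0.036 on slide 1 and 0.31 on slide 2, with the same sign for 1 marker, Csf1r. Between exposed groups, 0.5M lay below AhR for 10 of 10 markers (median -0.20), by 0.56 within slide 2, but was higher by 0.071 within slide 1. M lay above 0.5M for 9 of 10 (median 0.14, with 0.027 on slide 1 and 0.23 on slide 2, and 0.072 without 0.5M 4 or 0.075 without M 3) and below AhR for 9 of 10 (median -0.069, with 0.13 on slide 1 and -0.26 on slide 2). Whether the slides differ in these group differences was not tested.

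**Figure D2:**
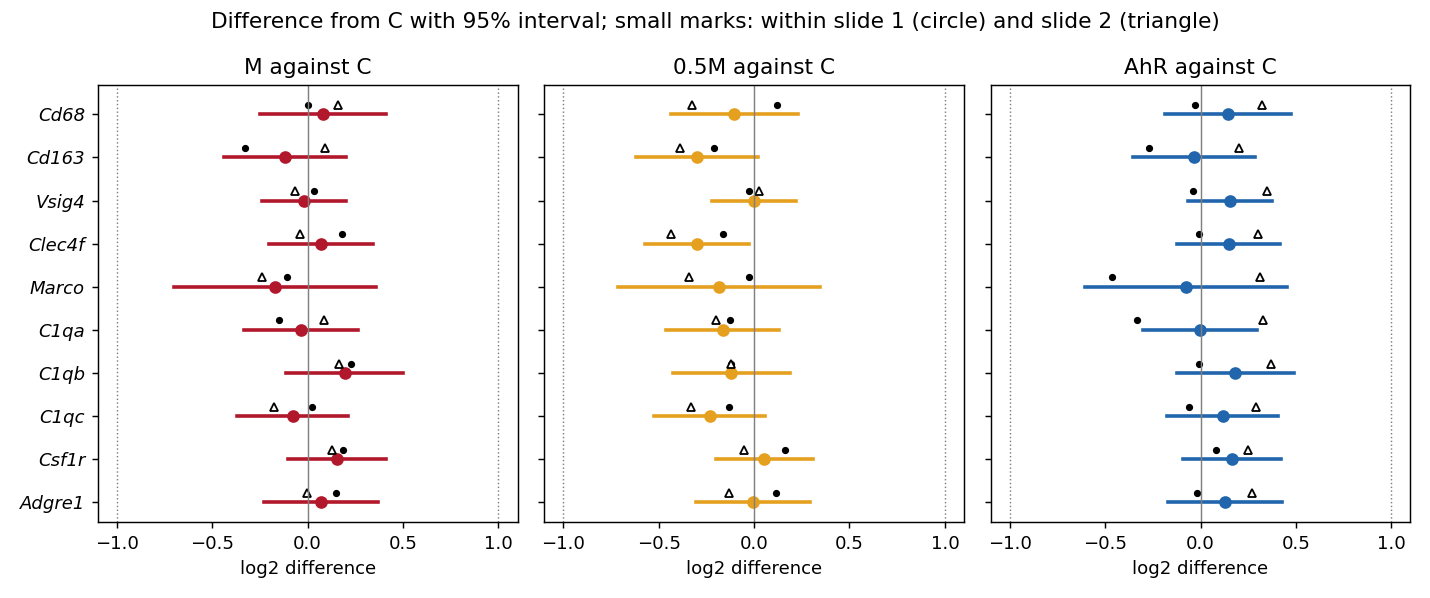
Log2 difference of each exposed group from C for the 10 markers, with the limma estimate as a large point, its 95% interval as a line, the difference within slide 1 as a small circle and within slide 2 as a triangle. Dotted lines at -1 and 1 mark a change of the ratio by a factor of 2, and no interval reaches them. Ratios of weak signals are shrunk by the offset of 50.

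The precision of the arrays bounds how large a group difference in the ratios could have been. Against C, the 95% intervals of the 10 transcripts lay between 0.615 and 1.42 times the C ratio in M. They lay between 0.610 and 1.27 times it in 0.5M and between 0.657 and 1.40 times it in AhR. The offset of 50 added to both channels shrinks differences of weak signals, such as Csf1r on M 1 (74.5 over a background of 62). For such markers the intervals do not bound the change in transcript level. The median standard error of a marker difference was 0.140 on the log2 scale, against 0.104 over all transcripts. The median residual SD was 0.217 for the markers and 0.149 for all transcripts, and 9 of the 10 markers lay above the median of all transcripts, Vsig4 being the exception at the 48.7th percentile. The median level of the 10 markers on an array had a residual SD of 0.175 between arrays, after group and slide, and the median differences from C, from 0.027 to 0.14 in size, were smaller than this.

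Much of the spread of the markers between arrays was shared. After removal of the slide means, the levels of the 45 pairs of markers correlated positively across the 16 arrays in 45 of 45 pairs, with a median Pearson's r of 0.573 and a range of 0.212 to 0.82. Pairs of other transcripts were not examined, so the counts of pairs given here have no background beside them. Of the 45 marker pairs, 20 passed a two-sided permutation test (100000 draws within slides, adjusted over the 45 pairs) by r and 12 by Spearman's rho. The highest was C1qc with Adgre1 (r = 0.82, permutation p = 0.00317, adjusted p = 0.0204; rho = 0.774, permutation p = 0.00604, adjusted p = 0.0302), at 0.375 within slide 1 and 0.903 within slide 2. C1qa with C1qc gave r = 0.776 (adjusted permutation p = 0.0279) and rho = 0.724 (adjusted permutation p = 0.0452), with r at 0.158 and 0.929 within the slides. Some pairs were alike on both slides, among them Cd68 with Marco (r = 0.741, 0.793 and 0.731 within the slides), Clec4f with C1qb (0.708, 0.706 and 0.792) and Csf1r with Adgre1 (0.805, 0.68 and 0.832). The adjusted permutation p of these 3 pairs was at most 0.0111 by r and 0.0302 by rho. Over all pairs the median r was 0.0867 within slide 1, where 25 of 45 were positive, and 0.754 within slide 2, where all 45 were. Without the 2 arrays farthest from the median of each pair's first gene, the median r was 0.496. The count of 20 pairs rested on a few arrays: it was 3 without AhR 3, 11 without C 3, 12 without M 3, 12 without 0.5M 4, 9 without the 2 arrays with muscle transcripts and 2 without the 5 arrays with transcripts of other tissues. With median centring in place of loess all 45 pairs passed, with a median r of 0.928 within slide 1. Pairs of other transcripts were not examined under this or any other setting, so this is not read as stronger shared variation of the markers. With slide and group means removed the median r was 0.579, so the shared variation was also present within groups. The count was then 25, but the draws took no account of the removed group means. This count is therefore likely too high and is not comparable with the 20.

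**Figure D3:**
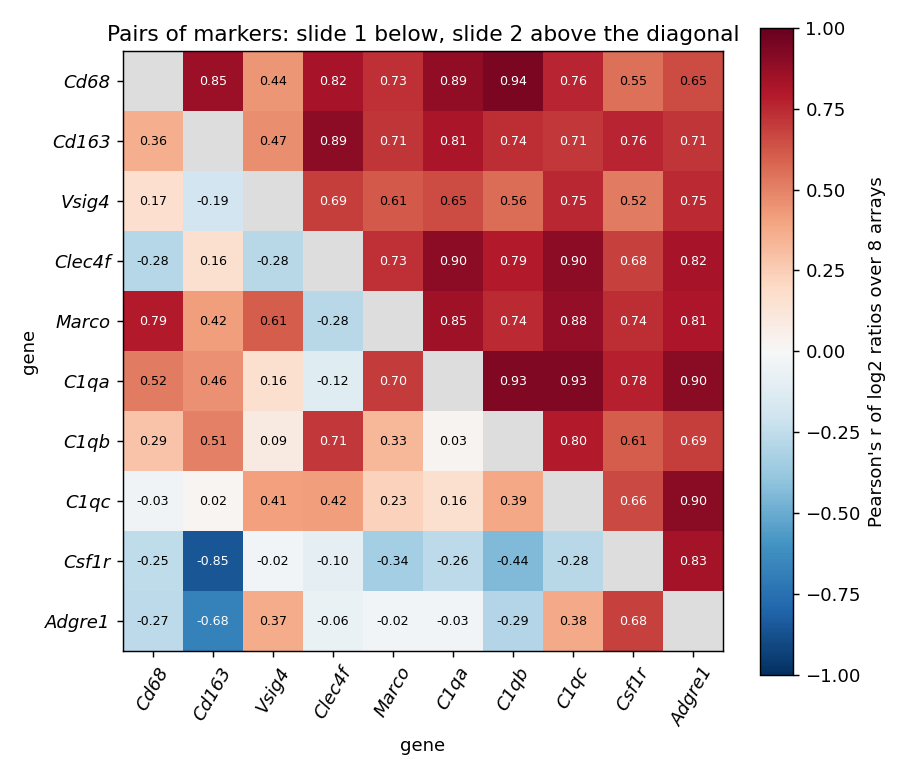
Pearson's r between the log2 ratios of each pair of markers over the 8 arrays of slide 1 (below the diagonal) and of slide 2 (above it), from blue at -1 to red at 1. All 45 pairs are positive on slide 2, whereas 25 of 45 are on slide 1.

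The mean standardised level of the 10 transcripts gives the order of the arrays relative to their slide. On slide 2 it was highest in AhR 3 (1.80 SD units, with 10 of 10 markers above the slide mean), followed by AhR 4 (0.751, 9 of 10), M 3 (0.612, 8 of 10) and C 4 (0.508, 8 of 10). The other arrays of that slide were low: M 4 at -0.704, C 3 at -0.775, 0.5M 3 at -0.823 and 0.5M 4 at -1.37, the last with 0 of 10 markers above the slide mean. C and M thus each had a high and a low array on the same slide. On slide 1 the range was narrower, from -0.337 in AhR 1 to 0.662 in M 1. Against the number of probes well above background the mean level had r = -0.118 over 16 arrays, with -0.597 within slide 1 and 0.16 within slide 2. Against the median liver signal r was -0.0796, with -0.476 within slide 1 and 0.0975 within slide 2. These are descriptions, and the part of array depth in the levels was not tested.

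**Figure D4:**
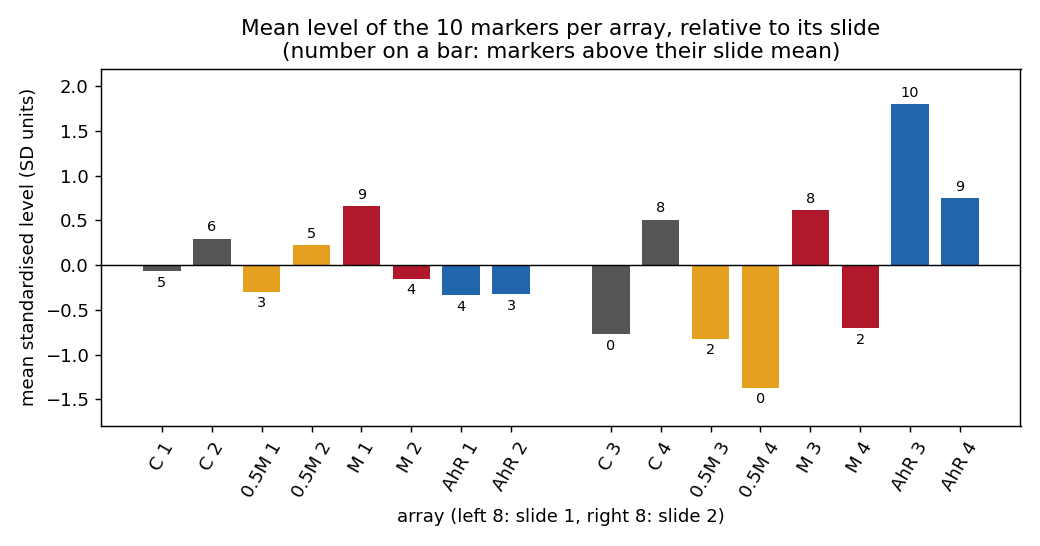
Mean standardised log2 ratio of the 10 markers on each array relative to its slide, in SD units, coloured by group, with the number of markers above the slide mean on each bar. AhR 3 is highest at 1.80 with 10 markers above the mean, and 0.5M 4 lowest at -1.37 with 0.

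Each marker was set against the mean of the other 9. The correlation was highest for C1qa (r = 0.868) and C1qc (r = 0.864), and no transcript outside the 10 had a higher r with that mean. It was lowest for Csf1r (r = 0.575), where 2.92% of all other transcripts were higher. Outside the list, the 8 genes with the pattern most like the mean of the markers over the 16 arrays, slide means removed, were Ccl6 (r = 0.848), Ifitm1 (0.847), Grn (0.837), Ncf4 (0.832), Fcgr2al1 (0.831), Tnfaip8l2 (0.823), Irf5 (0.821) and Napsa (0.809). Ncf4, Irf5 and Napsa kept values of at least 0.770 within slide 1 and of at least 0.844 within slide 2, whereas Fcgr2al1 stood at 0.229 and 0.916. The median r of all other transcripts was 0.0223, with 52.7% positive. These values of r are a description of the same 16 arrays.

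Related macrophage genes were read from further lists, and no member of any list passed in any comparison (limma, adjusted over all transcripts). Of 14 measured phagocytic and scavenger receptors, 12 correlated positively with the marker mean (median r = 0.618), and 9 were higher in M, 5 in 0.5M and 10 in AhR than in C. Their smallest p belonged to the fatty acid and oxidised lipoprotein receptor Cd36, at 0.60 ± 0.21 in M against C (limma, adjusted p = 0.314, above all C arrays in 4 of 4, beside 4.19% of all transcripts without overlap). Of 7 measured growth and transcription factors of macrophages, 3 were higher in M, 2 in 0.5M and 5 in AhR, with a median r of 0.395. Csf1, a ligand of Csf1r, stood at -0.21 ± 0.09 in 0.5M against C (adjusted p = 0.738, below all C arrays in 4 of 4, beside 3.04% of all transcripts without overlap). Its difference from C was also -0.21 in M (limma, adjusted p = 0.407), and 0.021 in AhR. The 12 measured complement genes beside C1q had a median r of 0.312, and the lectin pathway protease gene Masp1 stood at -0.33 ± 0.14 in M (adjusted p = 0.416).

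Of 14 measured genes of the lysosome and antigen presentation, 13 were higher in M than in C (median log2 difference 0.23), 6 in 0.5M (-0.071) and 8 in AhR (0.026), and 14 of 14 correlated positively with the marker mean (median r = 0.478). Their mean log2 ratio per array ran from -0.304 to 0.49 in M and from -0.474 to 0.0699 in C. The highest M array was M 2, which held muscle transcripts, and its part in the count was not tested. These 14 differences share the same arrays and are not separate evidence. Laptm5, a lysosomal membrane protein of blood cells, had the smallest p, at 0.35 ± 0.10 in M (limma, adjusted p = 0.191). The 11 genes of iron and heme handling had a median r of 0.222, and the ferritin light chain gene Ftl1 stood at 0.50 ± 0.20 in M (adjusted p = 0.394). Ftl1 stood at 0.30 in 0.5M and at 0.44 in AhR. Among 12 measured genes of endotoxin sensing and cytokines (median r = 0.223), Lbp, which carries endotoxin to its receptor and is made by hepatocytes, stood at -0.92 ± 0.23 in M (adjusted p = 0.130, below all C arrays in 4 of 4, beside the same 4.19%). Lbp was also lower in 0.5M, at -0.85 (limma, adjusted p = 0.578), and stood at -0.18 in AhR. Tlr4 was well above background on 1 array, and Il6, Il10, Ccl2, Nos2 and Nlrp3 on none.

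Markers of other cells were set beside these. Of 12 markers of monocytes and recruited macrophages, 8 were measured, with a median r of 0.39 with the marker mean. Itgam and Ccr2 were not well above background on any array and Vcan on 1. The summed liver signal of the 8 ranged from 1428 to 1724 in C, 1276 to 1402 in 0.5M, 1212 to 1747 in M and 1220 to 1754 in AhR, and Cd44, an adhesion receptor of many cell types, had the smallest p (0.47 ± 0.15 in M, limma, adjusted p = 0.231). Of 7 T cell markers 2 were measured, with Cd3e, Cd2 and Lck well above background on 0 arrays. Hepatocyte markers had a median r of 0.108 and liver endothelial markers of 0.147. For stellate cells and fibroblasts the median r was -0.289, and for muscle -0.383, with 0 of 4 positive. Few genes stood behind the higher medians of erythroid cells (0.528, 4 measured) and natural killer cells (0.593, 2 measured). The same holds for T cells (0.388, 2 measured) and B cells (0.286, 3 measured).

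The lowest p-values of these lists did not pass either (limma, adjusted over all transcripts). In M against C the defensin Np4 of neutrophils stood at -0.87 ± 0.28 (adjusted p = 0.247), the urea cycle enzyme Cps1 of hepatocytes at -0.49 ± 0.19 (adjusted p = 0.392) and the collagen gene Col1a2 at 0.57 ± 0.33 (adjusted p = 0.604). The secreted phosphoprotein Spp1 stood at -0.19, the T cell receptor component Cd3g at -0.16 and the pancreatic protease Ctrb1 at 0.99 in the same comparison (adjusted p = 0.505, 0.475 and 0.510). In 0.5M the B cell factor Pax5 stood at -0.38 ± 0.11, the erythroid factor Klf1 at -0.12 ± 0.07 and the fat cell gene Cfd at -0.38 ± 0.20 (adjusted p = 0.578, 0.761 and 0.748). In AhR the granule protein gene Nkg7 of cytotoxic lymphocytes stood at 0.25 ± 0.08 and the endothelial receptor Eng at 0.12 ± 0.14 (adjusted p = 1 for both).

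The muscle signal was high on 1 array of 0.5M and 1 of M. Its sum ranged from 443 to 51240 in 0.5M and from 352 to 44654 in M, against 380 to 673 in C and 375 to 875 in AhR. Ckm, the creatine kinase of muscle, stood at 1.55 ± 1.15 in 0.5M against C (limma, adjusted p = 0.815), and at 1.46 in M (adjusted p = 0.728). Without 0.5M 4 and M 2, the median difference of the 10 markers was -0.12 in 0.5M against C, 0.011 in M against C and -0.13 in 0.5M against AhR. Without all 5 arrays that held transcripts of muscle, pancreas or fat, these medians were -0.029, 0.00093 and -0.19.

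**Figure D5:**
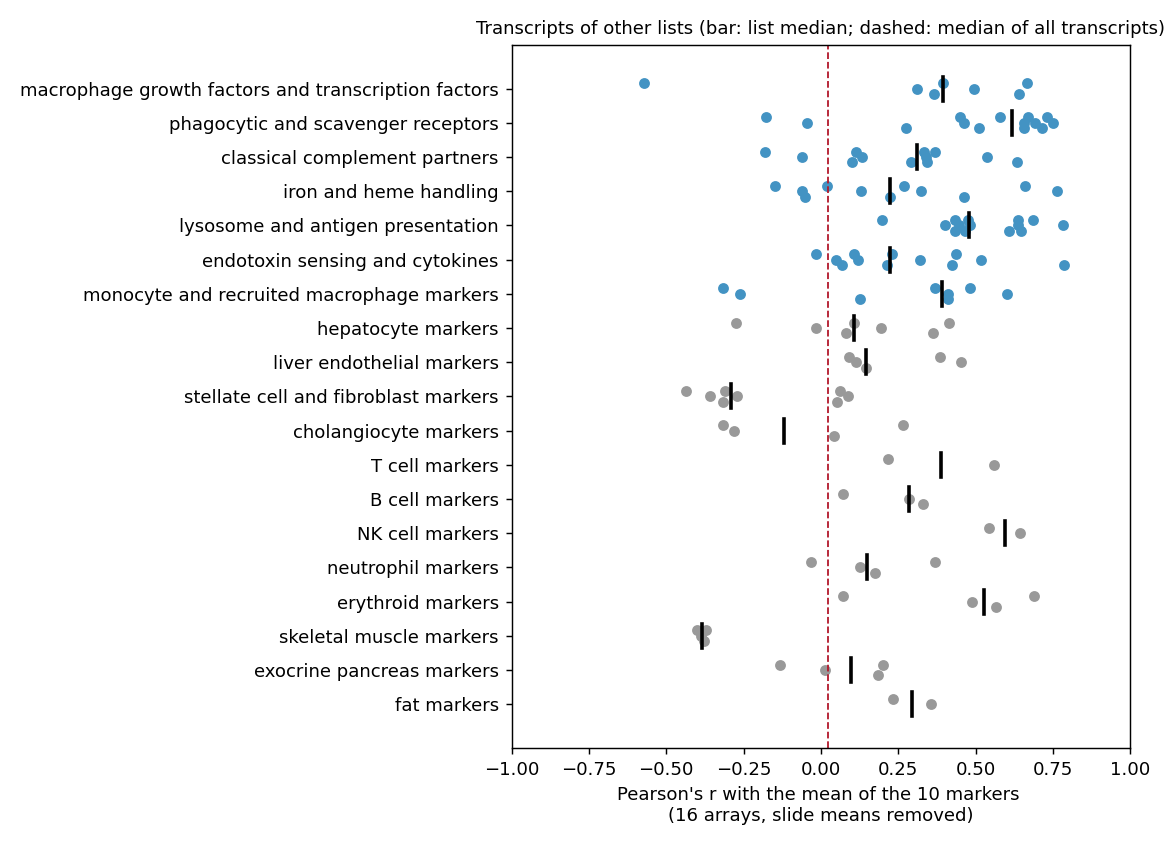
Pearson's r between each measured transcript of the other gene lists and the mean of the 10 markers over 16 arrays with slide means removed, with blue points for macrophage-related lists, grey points for other cell types, bars for list medians and a dashed line at the median of all transcripts (0.0223). The medians are 0.618 for phagocytic and scavenger receptors, 0.478 for lysosome and antigen presentation and -0.383 for skeletal muscle. Among the other cell types they reach 0.593 for natural killer cells (2 measured) and 0.528 for erythroid cells (4 measured).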

How the data were processed

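Per the file headers, the authors scanned each array with Agilent Feature Extraction (version 10.7.3.1), and the deposited files give median signal and background intensity for 62976 spots in both channels. Per the file headers, spot quality marks (unit other) are 0 or 1 and the LogRatio column is log10. A table of log2 values was deposited too; its columns correlated at 0.965 to 0.991 with their own scans and at most 0.882 with another array. The direction of that table follows from this, but a correlation does not give the scale. The median marker difference of 0.5M from C was -0.144 with that table and -0.142 with the scans. Its column medians ran from -0.0093 to 0.0125.

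Signals were background-corrected by normexp (offset 50) and normalized by loess within arrays with limma 3.58.1 in R 4.3.3 (package data.table, version 1.17.8), control spots having no weight. Outlier spots were dropped and spots of a probe averaged. Probes with a liver signal well above background on 4 or more of 16 arrays were kept (14524), 12 were left out for missing values, and the brightest probe per gene gave 13146 transcripts. The plan did not say which spot statistic to use, and the files hold medians. A limma model with group and slide was fitted to all arrays, with two-sided tests, Benjamini-Hochberg adjustment within each comparison and a threshold of 0.05, and 95% intervals. Named were all 10 markers, the 8 genes of like pattern, and from each further list the members past the threshold or else the one with the smallest p against C. Alternatives changed the background correction, normalization, filter, probe choice, slide term and arrays. The scripts were tested on simulated data. The markers and lists were chosen with earlier results of these data known. Precision is limited by the number of arrays.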

Additional observations from a re-analysis of the deposited data

Results flagged for a closer look

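Of 40 sets of 4 arrays (10 markers in 4 groups), 3 held an array far from the others by Dixon's test at the 95% level, and chance marks about 1 in 20 sets, so this number is close to what chance gives. Cd68 in M 1 stood at 0.595 (log2 ratio), with the next M array at 0.373. Csf1r in AhR 3 stood at 0.561, with the next AhR array at 0.0827. Adgre1 in M 4 stood at -0.346, with the next M array at 0.0989.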

How the results depend on the processing

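Over 32 alternatives, 0 of 224 counts of called markers (limma) rose above 0, and the smallest adjusted p of any marker was 0.279. Deviations from the group means correlated at -0.227 to 0.458 between arrays of the same replicate number, with 0.223 to 0.379 for number 3. As not every pair was over 0.1, the arrays were not treated as paired, although 9 of 16 arrays correlated best, among arrays of other groups, with one of their own number. Fitted with the replicate number as a block in place of the slide, 0 markers passed in each comparison, with smallest adjusted p from 0.306 (0.5M against AhR) to 1 (AhR against C). Single differences from C were small enough to change sign in 23 of 320 values for M, 23 for 0.5M and 27 for AhR, none of them called. Median centring moved the median of M against C to -0.174 (-0.0879 over all transcripts) and gave 45 correlated pairs, with a median r of 0.928 within slide 1. The pair count was 9 without the muscle arrays, 2 without the 5 arrays with other tissue, and 3 to 24 when 1 array was left out (3 without AhR 3). The medians between exposed groups were examined under the alternatives only after the data had been seen. Within slide 1 and slide 2, that of M against AhR was 0.134 and -0.257, and that of 0.5M against AhR 0.0712 and -0.559; the latter was -0.322 to -0.129 when 1 array was left out, M against 0.5M was 0.0503 with median centring and 0.0202 without the 5 arrays, and M against AhR changed sign without AhR 3 (0.036) and without M 4 (0.0053). Against C, leaving out 1 array gave medians of -0.0303 to 0.0565 for M, -0.243 to -0.0777 for 0.5M and 0.0292 (without AhR 3) to 0.197 for AhR. The cause of these shifts was not tested. Signal limits Vsig4 and Csf1r, which were not well above background on M 1 and, for Csf1r, AhR 1.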
